A study of Mus musculus with 51 samples.

Results

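The response of RELB-/- neutrophil-like cells to zymosan was measured by RNA sequencing in 4 libraries, 2 given zymosan and 2 given DMSO, of 51 samples in the whole series. The members were chosen from the sample titles alone: the day 5 RELB cultures at 2 h of zymosan and their DMSO counterparts in the second of the ER-Hoxb8 count tables. That table holds 12 libraries, and the other 8 (wild type and IRF5-/-, each with DMSO and with zymosan, 2 per group) entered the fit and served as the reference for genes whose response differed. All 3 lines are ER-Hoxb8 cells, mouse myeloid progenitors kept immortal by an estradiol-dependent Hoxb8 protein, which mature towards neutrophils when estradiol is withdrawn. They were matured for 5 days with G-CSF at 20 ng/ml and SCF, and then received zymosan, a yeast cell wall particle, at 50 µg/ml or the DMSO vehicle for 2 h. The labels do not say how either knockout was made, whether a line is a single clone, or whether the 2 libraries of a group came from separate cultures, so the p-values below measure the spread between these libraries, which may be technical. Each genotype is represented by 1 line, so the genotype and the line cannot be told apart.

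RelB is one of the NF-kB family of transcription factors. In the classical pathway, IkB proteins hold RelA and c-Rel dimers in the cytoplasm until a receptor such as Dectin-1 or a Toll-like receptor, both of which detect zymosan, triggers their release. In the alternative pathway, RelB leaves with p52, which is cut from the Nfkb2 product. Relb and Nfkb2 are themselves known targets of the classical pathway, as are many cytokine, chemokine and feedback inhibitor genes.

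The 4 RELB-/- libraries held 27398001 to 34263252 counted read pairs. Levels are given as CPM (counts scaled to library size, here with the TMM factors of edgeR), and each response is the log2 ratio of zymosan over DMSO with its standard error. With zymosan a larger part of the read pairs of RELB-/- cells fell in strongly raised genes. The 1122 genes called up at least 4-fold took 6.69% and 6.70% of read pairs with DMSO and 33.7% and 33.5% with zymosan. These genes were chosen by that rise. The 10 highest genes of each library took 9.74% and 9.65% with DMSO and 13.7% and 13.6% with zymosan. The scaling therefore matters, and scaling by total counts instead lowers every RELB-/- response by about 0.89 on the log2 scale (median over genes), so a positive response below that size becomes negative. Neutrophil markers summed to 54944 and 54568 CPM with DMSO and 75117 and 75179 CPM with zymosan over 13 genes, of which none was at 0 counts in these libraries. S100a8 and S100a9 made up most of each sum. Of the 13 genes 9 rose and 3 fell, but with total-count scaling 0 rose and 12 fell. Markers of T and NK cells (3.65 to 7.39 CPM in sum, with Cd3e, Cd4 and Cd8a at 0 counts in all 4 libraries) and of red cells and platelets (4.65 to 7.35 CPM) were near 0. Of the 7 B cell markers 1, Ighm, made up nearly the whole sum of 21.0 to 38.3 CPM, and Ms4a1 and Pax5 had 0 counts in all 4 libraries.

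The sequences below belong to genes on which the results turn. The 5 windows are the 250 bases before the annotated start of Cxcl2, Cxcl3, Nfkbia, Il1a and Areg (RefSeq, GRCm38.p6), 5′ to 3′ on the strand of the gene. Capitals mark every match, on either strand, to a narrow NF-kB pattern (GGGA, any base, TTTCC, added after the values were seen) in the first 3, to TGANTCA (an AP-1 pattern) in Il1a and to TGACGTCA (a cyclic AMP response element) in Areg. Each window holds 1 match, whose first base lies 97, 73, 29, 12 and 61 bases before the start in that order of genes.
Cxcl2, chr5:90903649-90903898, plus strand: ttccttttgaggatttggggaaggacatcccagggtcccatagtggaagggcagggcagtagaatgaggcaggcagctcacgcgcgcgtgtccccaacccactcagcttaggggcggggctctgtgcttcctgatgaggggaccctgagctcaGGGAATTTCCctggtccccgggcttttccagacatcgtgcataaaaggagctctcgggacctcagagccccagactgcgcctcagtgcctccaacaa
Cxcl3, chr5:90785851-90786100, plus strand: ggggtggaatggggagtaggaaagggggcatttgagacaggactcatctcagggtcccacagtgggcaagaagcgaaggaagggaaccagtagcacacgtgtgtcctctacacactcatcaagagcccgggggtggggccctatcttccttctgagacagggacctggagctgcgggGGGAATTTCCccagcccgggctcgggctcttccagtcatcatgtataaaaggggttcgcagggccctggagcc
Nfkbia, chr12:55492648-55492897, minus strand: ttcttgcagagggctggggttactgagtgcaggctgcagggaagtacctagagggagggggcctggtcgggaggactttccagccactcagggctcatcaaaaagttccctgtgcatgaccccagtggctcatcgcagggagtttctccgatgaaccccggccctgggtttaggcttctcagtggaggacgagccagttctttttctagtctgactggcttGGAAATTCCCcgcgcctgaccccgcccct
Il1a, chr2:129309973-129310222, minus strand: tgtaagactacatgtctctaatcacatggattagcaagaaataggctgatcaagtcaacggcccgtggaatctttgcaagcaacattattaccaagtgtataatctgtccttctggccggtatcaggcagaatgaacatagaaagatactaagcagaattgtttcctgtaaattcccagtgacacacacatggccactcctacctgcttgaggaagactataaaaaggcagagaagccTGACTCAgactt
Areg, chr5:91139349-91139598, plus strand: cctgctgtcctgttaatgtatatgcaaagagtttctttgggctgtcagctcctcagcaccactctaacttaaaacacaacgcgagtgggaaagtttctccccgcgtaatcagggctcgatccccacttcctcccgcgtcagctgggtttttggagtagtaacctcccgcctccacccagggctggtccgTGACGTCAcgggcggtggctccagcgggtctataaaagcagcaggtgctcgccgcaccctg
The gene Mir155hg, which rose strongly, is the host transcript of a miRNA whose mature form is shown with its seed (bases 2 to 8) in capitals. The libraries were made from poly(A) RNA, so they measured the host transcript and not this miRNA.
mmu-miR-155-5p, chr16:84714143-84714165, plus strand: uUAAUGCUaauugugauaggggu

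A motif match describes the letters of the window and is no evidence of binding. Of the 27025 genes in the promoter table, 0.414% held the narrow NF-kB pattern, 7.82% held TGANTCA and 1.77% held TGACGTCA in these 250 bases. Of the 1122 genes called up at least 4-fold in RELB-/- cells, 711 had a window, and the shares were 1.69%, 10.3% and 4.50%. Among the 9519 tested genes with a window they were 0.494%, 5.64% and 3.12%, and among 633 of the 893 genes called down at least 4-fold they were 0.316%, 4.58% and 2.05%. A looser NF-kB pattern, GGG and CC with any 5 bases between them, which includes the narrow one, was in 48.7% of all genes, 65.6% of tested genes, 66.5% of the strongly raised and 62.2% of the strongly lowered genes. No test was made of these shares.

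Zymosan changed most of the transcriptome of RELB-/- cells within 2 h. Of 13779 genes tested, 10014 (72.7%) passed an adjusted p of 0.05 (edgeR quasi-likelihood test, Benjamini-Hochberg), with 4847 higher (35.2%) and 5167 lower (37.5%). At least 2-fold changes were called for 2439 genes higher (17.7%) and 2726 lower (19.8%), and at least 4-fold changes for 1122 higher (8.14%) and 893 lower (6.48%). The median response over all genes was -0.05. With total-count scaling 2071 genes rose and 9382 fell. Counts of list members below are to be read against the 72.7% of all genes that passed, since at this depth and with a common coefficient of variation of 0.019 between replicates even small changes passed.

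The Relb transcript itself was counted in every library of the line labelled RELB-/-. Its level was 68.3 and 67.5 CPM with DMSO and 377 and 369 with zymosan, a response of 2.46 ± 0.028 (SE, adjusted p = 4.31e-73). In wild-type cells it was 168 and 172 CPM with DMSO and 469 and 447 with zymosan (response 1.43), and in IRF5-/- cells 72.2 and 74.8 CPM with DMSO and 568 and 562 with zymosan (response 2.94). With DMSO the RELB-/- libraries thus lay below both wild-type libraries but close to those of IRF5-/-. Counts over whole genes do not show a small edit in an exon, so they neither check nor contradict the label. Irf5 did not separate the lines by label either: with DMSO it was 38.4 and 39.1 CPM in RELB-/-, 81.0 and 81.8 in IRF5-/- and 95.7 and 101 in wild-type cells.

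All 5 NF-kB subunit genes rose, with a median response of 3.29. Rel, which encodes c-Rel, went from 85.4 and 85.8 CPM to 1114 and 1141 (response 3.72 ± 0.025). Nfkb2, which encodes the precursor of p52, had 154 and 149 CPM with DMSO and 1665 and 1650.5 with zymosan (response 3.45 ± 0.022). Nfkb1, which encodes the precursor of p50, had 115 and 114 CPM with DMSO and 1126 and 1117 with zymosan (response 3.29 ± 0.023). Rela moved least of the 5, from 130.1 and 135 CPM to 328 and 305 (response 1.26 ± 0.028). In no subunit did the DMSO and zymosan libraries overlap, and all 5 stayed positive with total-count scaling.

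Of 7 IkB genes, 6 rose and 1 fell, with a median response of 3.79. Nfkbiz, which encodes the nuclear cofactor IkB-zeta, had the largest response: 97.1 and 98.2 CPM with DMSO and 4787 and 4832 with zymosan (5.62 ± 0.022). Nfkbia, the classical cytoplasmic inhibitor whose window is shown above, had 436 and 450.5 CPM with DMSO and 2808 and 2800.0 with zymosan (response 2.66 ± 0.020). Nfkbid rose by 4.24, Nfkbie by 4.04 and Nfkbib by 3.79. Bcl3 had a response of 0.25, which was -0.64 with total-count scaling, and Nfkbil1 fell by 0.69. Bcl3 encodes a nuclear IkB protein that works with p50 and p52. In the alternative pathway list, 6 of 11 tested genes rose and 2 fell (with total-count scaling 3 rose and 7 fell), with a median response of 0.23. Its larger changes were in Birc3, an adaptor ligase (225 and 220.1 CPM with DMSO and 764 and 759 with zymosan, response 1.77 ± 0.023), and in Traf3, which restrains the pathway by keeping NIK low (response 1.10 ± 0.029).

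**Figure D1:**
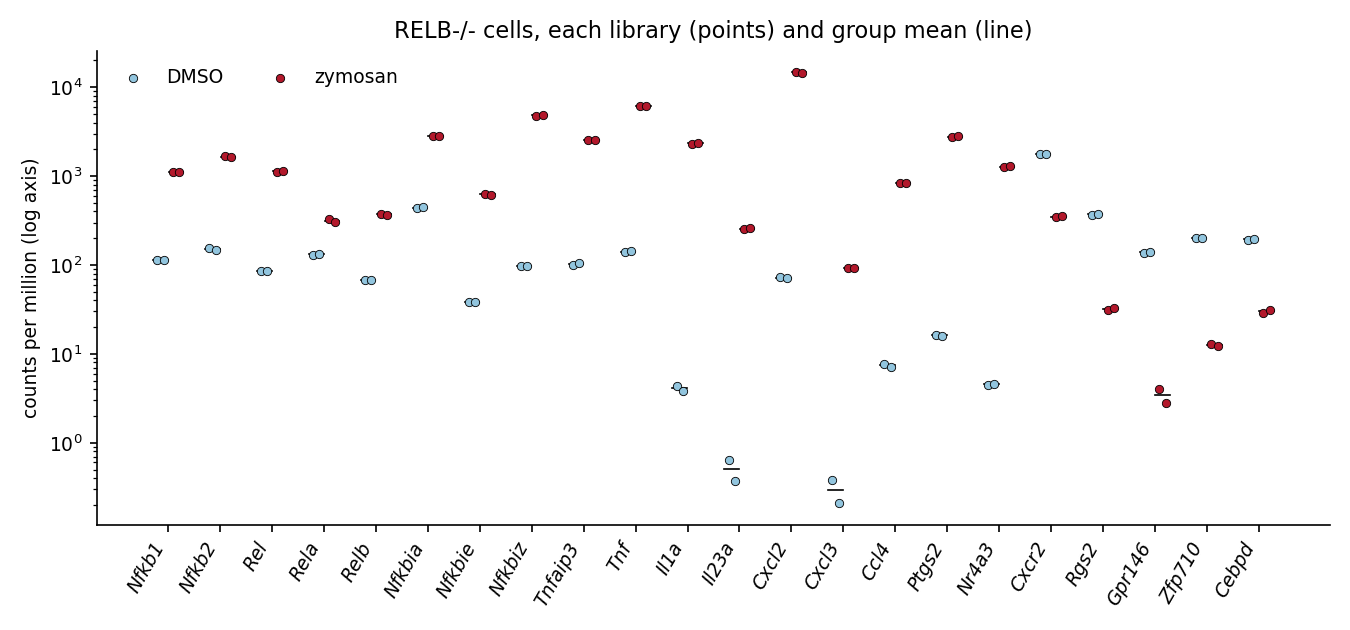
Level in each RELB-/- library (y axis, CPM on a log axis; x axis, genes) with DMSO (blue) and zymosan (red), where each point is a library and each line a group mean of 2. Replicates lie close together and the treatments do not overlap: Nfkbiz moves from 97.1 and 98.2 to 4787 and 4832 CPM, while Rgs2 moves from 369 and 379 down to 31.0 and 32.8 CPM.

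Feedback inhibitors of inflammatory signalling rose in 22 of 24 genes and fell in 2, with a median of 2.72, and the split was the same with total-count scaling. Tnfaip3, which encodes the ubiquitin-editing enzyme A20, reached 2531 and 2549.8 CPM from 100.4 and 105 (response 4.63 ± 0.023). Il1rn, the interleukin-1 receptor antagonist, went from 213 and 215 to 8159.6 and 8185 CPM (response 5.25 ± 0.019). Zc3h12c, a relative of the RNase Regnase-1, rose by 6.42 ± 0.053. Among dual-specificity phosphatases, which switch off MAP kinases, 8 of 10 rose and 1 fell. Dusp4 was near 0 with DMSO and high with zymosan (0.332 and 0.263 CPM with DMSO and 47.7 and 49.7 with zymosan, response 7.33 ± 0.14), and Dusp2 and Dusp1 rose by 5.65 and 4.74. Dusp7 was the member that fell, from 31.2 and 31.0 CPM to 1.98 and 2.10 (response -3.93 ± 0.11).

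All 25 immediate early transcription factor genes rose, with a median of 2.54, although with total-count scaling 21 rose and 3 fell. These genes are transcribed within minutes of a stimulus without new protein. Nr4a3, an orphan nuclear receptor, went from 4.48 and 4.60 to 1256 and 1298 CPM (response 8.14 ± 0.038). Fosl1, an AP-1 subunit, had 1.87 and 1.71 CPM with DMSO and 180.1 and 180.1 with zymosan (response 6.65 ± 0.069). Myc was near 0 with DMSO, at 10 counts over both libraries, and reached 21.0 and 18.5 CPM. The 2 treatments were far apart in each of these genes compared with the gap between replicates.

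Cytokine genes included the largest rises. Of 19 tested, 17 rose and 1 fell, with a median of 4.22 (3.89 with 3 genes that had no count in a group set at their bound), and the untested Il33 and Il17a had 0 counts in the 4 libraries. Il1a, an alarmin with an AP-1 match in its window, went from 4.34 and 3.83 to 2323 and 2349.9 CPM, a response of 9.15 ± 0.035 (569.5-fold, adjusted p = 3.94e-106). Il23a, a subunit of interleukin-23, had 0.640 and 0.368 CPM with DMSO and 254 and 259 with zymosan (response 8.96 ± 0.070). Il23a was barely above 0 without zymosan, and in both genes the treatments were far apart compared with the gap between replicates. Tnf started higher and ended at 6103 and 6088 CPM from 139.9 and 143 (response 5.43 ± 0.021). Il1f6, which encodes interleukin-36 alpha, rose by 7.84 ± 0.17.

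Some cytokine genes had so few reads with DMSO that a ratio with a 95% counting interval is given in place of a fitted fold. Csf3, which encodes G-CSF, had 6 counts with DMSO and 4402 with zymosan, a ratio of 1262 (579 to 3441). Il10 had 2 and 540 counts, a ratio of 465 (128 to 3846). Il6 had 0 and 40 counts and was at least 22.9-fold higher, against a floor of 3 counts over the DMSO group. The growth factors Ereg and Areg, ligands of the EGF receptor, had 1 and 501 counts (ratio 862, 154 to 34113) and 2 and 595 counts (ratio 512, 141 to 4236). These exact binomial intervals cover counting error only, since the reads carry no molecular identifiers.

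Chemokine genes rose in 11 of 15 tested and fell in none (edgeR), with a median of 5.53 (4.92 with 1 gene at its bound). With total-count scaling 10 rose and 1 fell. The untested members Cxcl5, Cxcl9, Ccl17, Ccl20 and Ccl22 had 1 to 10 counts over the 4 libraries. Cxcl2, a neutrophil attractant, went from 73.1 and 70.7 to 14717 and 14594 CPM, a response of 7.67 ± 0.021 (adjusted p = 3.17e-115). Per length it became one of the 10 highest genes of zymosan-treated RELB-/- cells, at 7087 RPKM (the CPM divided by the gene length in kilobases), against 34.8 RPKM with DMSO. Cxcl3, its neighbour on chromosome 5 with the same 10 bases GGGAATTTCC in its window, had 0.379 and 0.210 CPM with DMSO and 92.6 and 92.1 with zymosan (response 8.25 ± 0.10). Ccl4, an attractant of monocytes and T cells, rose by 6.81 ± 0.036, to 833 and 838 CPM.

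Other genes among the 15 largest rises, at a mean log2 CPM of at least 4 over the RELB-/- libraries, had varied roles. Serpinb2, an inhibitor of plasminogen activators, went from 2.42 and 3.05 to 764 and 778 CPM (response 8.15 ± 0.046). Mir155hg, the host of miR-155, had 0.450 and 0.289 CPM with DMSO and 100.0 and 102 with zymosan (response 8.06 ± 0.11). Ptgs2, which encodes the prostaglandin synthase COX-2, reached 2739 and 2798 CPM from 16.2 and 16.02 (response 7.42 ± 0.029). The list of eicosanoid and histamine enzymes that holds Ptgs2 did not move as a whole, with 5 of 12 genes up and 5 down. Acp5, a phosphatase, and Kcna3, a potassium channel, rose by 7.58 ± 0.19 and 7.32 ± 0.13. The remaining 2 of the 15 were AI504432 and a predicted gene.

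Among genes that sense zymosan and relay the signal, 15 of 19 rose and 1 fell, with a median of 0.62 (with total-count scaling 6 rose and 12 fell, median -0.27). The largest rises were in receptors of the C-type lectin family and in Malt1 (response 3.61), part of the relay from those receptors to NF-kB. Clec4e, which encodes Mincle, went from 672 and 662 to 9215 and 9317 CPM (response 3.80 ± 0.018). Clec4n, which encodes Dectin-2, had 39.1 and 38.3 CPM with DMSO and 409 and 428 with zymosan (response 3.43 ± 0.033). Of 22 Toll-like receptor and adaptor genes, 14 rose and 8 fell (5 and 15 with total-count scaling). Tlr2, a Toll-like receptor for zymosan, rose by 2.87 ± 0.019 to 3640.2 and 3605 CPM, and its co-receptor Cd14 by 4.26 ± 0.020 to 8680.0 and 8372 CPM. Nlrp3, the sensor of the best-known inflammasome, rose by 3.73 ± 0.021, but the inflammasome list split into 5 risen and 6 fallen of 13.

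Receptors for neutrophil attractants went both ways, with 10 of 16 up and 6 down (6 and 8 with total-count scaling). Fpr1, the receptor for formylated bacterial peptides, went from 686 and 689 to 4799 and 4767 CPM (response 2.80 ± 0.018), and Ptafr, for platelet-activating factor, rose by 2.52 ± 0.020. Cxcr2, the receptor for Cxcl2 and Cxcl3, fell from 1764 and 1757 to 345 and 355 CPM (response -2.33 ± 0.021). The receptor and its ligand genes therefore moved in opposite directions in the same libraries. Icam1, an adhesion molecule, rose by 4.13 ± 0.026. Bcl2a1d, a survival gene of the BCL2 family, rose by 6.80 ± 0.077, but it has near-identical copies, so the split of reads among them is uncertain.

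Metabolic genes moved in the same libraries. Of 19 glycolysis genes 17 rose and 2 fell (median 1.77; 11 and 8 with total-count scaling), and of 14 hypoxia response genes 12 rose and none fell (median 1.91; 11 and 2 with total-count scaling). Slc2a1, a glucose transporter, went from 234 and 238 to 1498 and 1474 CPM (response 2.65 ± 0.022), and Ldha, which makes lactate, rose by 2.81 ± 0.021. Hif1a rose by 2.28 and Vegfa, a target of its product, by 2.68. Of 20 antioxidant genes 15 rose and 4 fell (median 1.22; 11 and 7 with total-count scaling). Slc7a11, the cystine transporter, reached 5179 and 5254 CPM from 167 and 173 (response 4.94 ± 0.021), and Sod2, the mitochondrial superoxide dismutase, rose by 4.42 ± 0.022. Fth1, the heavy chain of ferritin, rose from 6148 to 31053 RPKM and was then among the 3 highest genes per length, after the calprotectin subunits S100a9 and S100a8. Cholesterol genes rose in 13 of 18 and fell in 5 (7 and 9 with total-count scaling). Insig1, which is controlled by sterol supply, rose by 2.15, whereas the exporter genes Abca1 and Abcg1 moved apart, at 2.98 ± 0.028 and -2.69 ± 0.074.

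**Figure D2:**
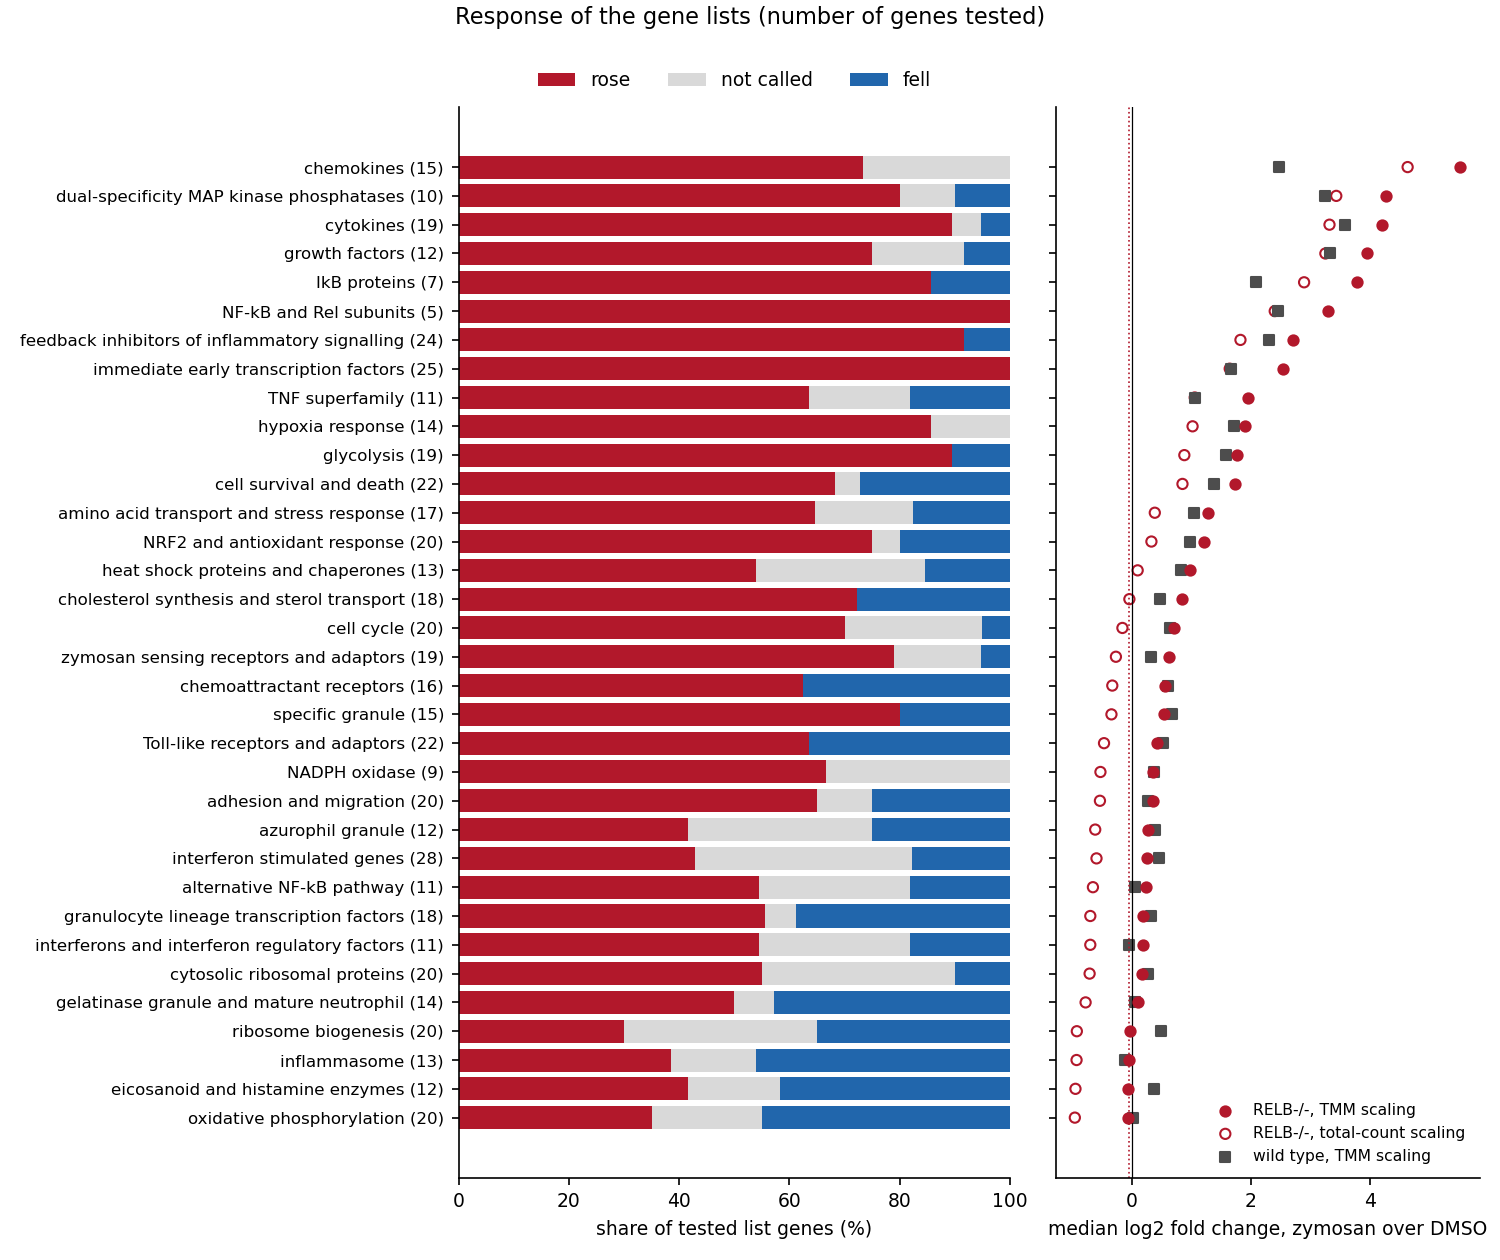
Left, share of tested genes of each list (x axis, %) that rose, were not called or fell with zymosan in RELB-/- cells at an adjusted p under 0.05, with the number tested in brackets. Right, median log2 response of each list in RELB-/- cells under TMM (filled circle) and total-count scaling (open circle) and in wild-type cells (square), where the dotted line is the median of all genes, -0.05. Cell type marker lists are not drawn. Of the lists drawn, chemokines, phosphatases and cytokines lead with medians of 5.53, 4.28 and 4.22, and oxidative phosphorylation is lowest at -0.07.

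The strongest falls were in genes of varied roles. The 12 largest falls at a mean log2 CPM of at least 4 were Abhd15, Gpr146, Zfp710, Dusp7, Fbxo31, Paqr7, Cnnm3, Sema6b, Fam53b, Abcd2, Cep19 and Rgs2, with responses of -5.83 to -3.56. Abhd15, a hydrolase family member, had 43.3 and 44.8 CPM with DMSO and 1.01 and 0.478 with zymosan (response -5.83 ± 0.13, 56.8-fold lower). Gpr146, a G protein-coupled receptor, had 138 and 140.0 CPM with DMSO and 4.04 and 2.82 with zymosan (response -5.31 ± 0.071). Rgs2, which shortens G protein signalling, went from 369 and 379 to 31.0 and 32.8 CPM (response -3.56 ± 0.035). No DMSO library overlapped a zymosan library in any of the 12, a condition of the rule that chose them. Wild-type cells lost the same transcripts, with responses from -4.53 in Abhd15 to -2.65 in Sema6b, all of them called.

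Transcription factors of the granulocyte lineage were split, with 10 of 18 up and 7 down (6 and 12 with total-count scaling). Cebpd fell from 192 and 198 to 28.8 and 31.3 CPM (response -2.70 ± 0.040). Cebpe, which drives late granule genes, and Cebpa, which acts earlier, fell by 1.24 and 1.13. The granule genes themselves changed little by comparison. Medians were 0.26 for 12 azurophil, 0.54 for 15 specific and 0.11 for 14 gelatinase and mature neutrophil genes, and turned to -0.62, -0.35 and -0.78 with total-count scaling. S100a8 and S100a9 had responses of 0.69 and 0.57, which were -0.20 and -0.32 with total-count scaling. Among 20 oxidative phosphorylation genes 7 rose and 9 fell (1 and 18 with total-count scaling), and the 20 ribosome biogenesis genes gave 6 risen and 7 fallen (2 and 16).

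Other lists were less uniform. Growth factor genes rose in 9 of 12 and fell in 1 (median 3.95), with Gdf15, a stress-induced cytokine, at 5.79 ± 0.34. In the TNF superfamily 7 of 11 rose and 2 fell (5 and 4 with total-count scaling), and Tnfrsf1b, the second TNF receptor, rose by 2.73 ± 0.017. Survival and death genes split into 15 up and 6 down of 22, with the cell cycle inhibitor Cdkn1a at 4.24. Interferon stimulated genes gave 12 up and 5 down of 28 (6 and 12 with total-count scaling), led by the guanylate-binding protein gene Gbp5 at 3.40 ± 0.27, and interferon and IRF genes 6 up and 2 down of 11 (1 and 8), with Irf4 at 3.86 ± 0.26. Amino acid transport and stress genes rose in 11 of 17 and fell in 3 (7 and 5), including Slc3a2, the partner chain of the cystine transporter (3.24), and Atf4 (1.56). Chaperones gave 7 up and 2 down of 13 (5 and 6), with Hspa4l at 4.45 and Hsp90aa1 at 2.28. Of 20 cell cycle genes 14 rose and 1 fell (4 and 5), with the proliferation marker Mki67 at 1.39 and levels of 10.7 and 11.3 CPM with DMSO and 27.1 and 30.8 with zymosan. Small positive medians that turned negative with total-count scaling were found for adhesion (13 up and 5 down of 20, then 5 and 15), NADPH oxidase (6 up and none down of 9 by edgeR, then 1 and 8) and cytosolic ribosomal protein genes (11 up and 2 down of 20, then 0 and 18). Cybb, the catalytic oxidase subunit, had a response of 0.66, or -0.23 with total-count scaling. Ribosomal protein genes have many processed copies, so their uniquely mapped counts are uncertain.

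Markers of dendritic cells were low but moved with zymosan. Their sum over 12 genes rose from 24.2 and 24.4 to 153 and 152 CPM, and Cd74, the invariant chain of MHC class II, made up most of the sum with zymosan (8.46 and 7.56 CPM with DMSO and 131 and 129 with zymosan), while Siglech and Cd209a had 0 counts in all 4 libraries. The 13 monocyte and macrophage markers summed to 1064 and 1063 CPM with DMSO and 1459 and 1466 CPM with zymosan, with C1qa and Cd163 at 0 counts in the first DMSO library. Of the 12 tested 5 rose and 4 fell, but with total-count scaling 2 rose and 7 fell. In bulk RNA, fewer cells of a type and less RNA per cell cannot be told apart, and the part of these genes in the response was not tested.

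Most genes responded in the same direction as in wild-type cells. Across the 13779 genes the 2 responses, which share no library, had Pearson's r of 0.862 and Spearman's rho of 0.863, given as a description since genes are not independent replicates. In wild-type cells 68.4% of genes were called, 36.3% higher and 32.1% lower. Both lines called a rise in 4251 genes and a fall in 3966, and opposite directions were called in 145 genes, 74 up and 71 down in RELB-/- cells. The difference in response was tested as an interaction in the same fit, and 4330 genes passed (31.4% of those tested), with 2225 positive (16.1%), meaning a response higher in RELB-/- cells, and 2105 negative (15.3%). Differences of at least 2-fold were called in 363 genes upward (2.63%) and 545 downward (3.96%). The split by direction depended on the analysis. Positive differences were 51.4% of those called here and 48.4% with total-count scaling. They were 65.4% with RLE scaling, 69.8% with DESeq2 and 71.5% when only the 8 libraries were fitted. The positive share also rose when any 1 of the 4 zymosan libraries was left out, and less so without a DMSO library.

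**Figure D3:**
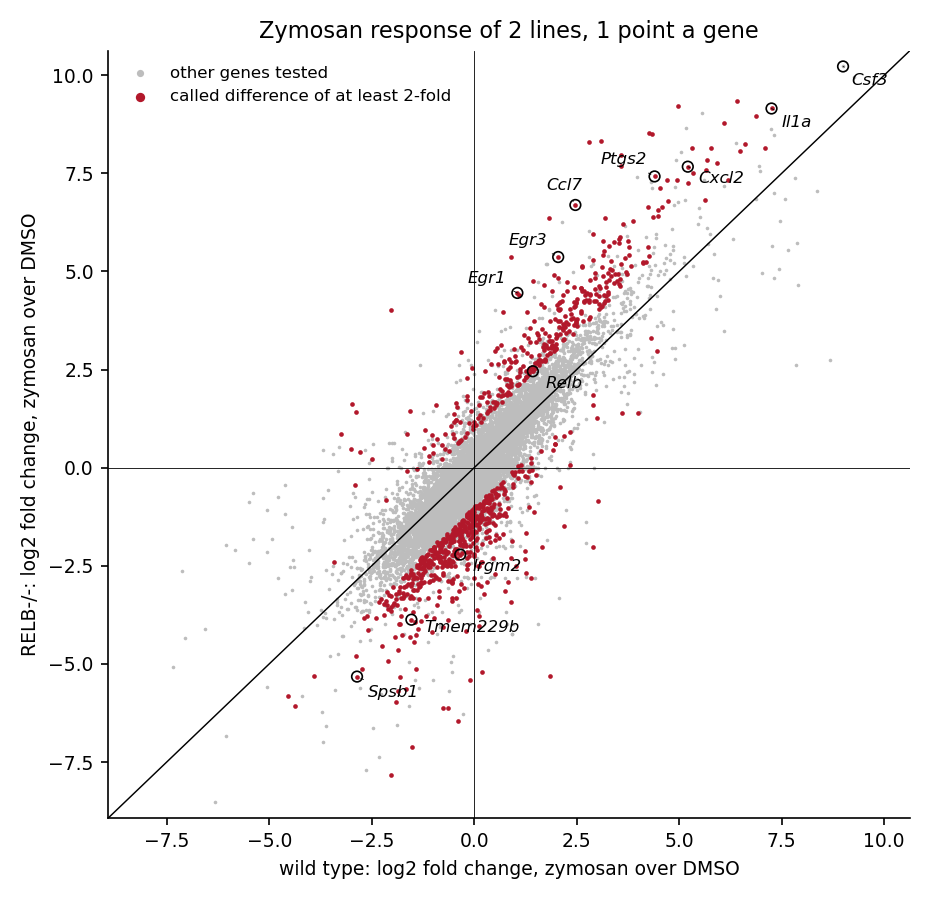
Response of each gene in wild-type (x axis) and RELB-/- cells (y axis), both as log2 fold change of zymosan over DMSO, where the diagonal marks equal responses. Genes with a called difference of at least 2-fold are red, 363 above and 545 below the diagonal, and circles mark named genes such as Ccl7, at 6.70 against 2.47, and Spsb1, at -5.32 against -2.86.

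One value moved with the line beside every difference below. Markers of eosinophils and mast cells, 14 genes, summed to 472 and 479 CPM with DMSO and 671 and 665 CPM with zymosan in RELB-/- cells. The same sums were 4330 and 4233 CPM, and 6672 and 6707 CPM, in wild-type cells, and 749 and 740, and 1210 and 1193 CPM, in IRF5-/- cells. Prg2, Epx and Ear6, which encode eosinophil granule proteins, carried the wild-type sum, and Fcer1a was at 0 counts in all 4 RELB-/- libraries. Siglecf of the same list went the other way, with 185 and 193 CPM with DMSO and 195 and 195 with zymosan in RELB-/- cells. Wild-type cells had 101 and 104 CPM of it with DMSO and 102 and 97.3 with zymosan. Of the 13 markers tested 7 rose and 0 fell in RELB-/- cells (edgeR), against 1 and 7 with total-count scaling. The part of eosinophils and mast cells or their RNA in the differences between lines was not tested.

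Genes that rose more in RELB-/- cells were mostly lower there before zymosan. Of 345 genes that rose with a difference of at least 2-fold upward, 324 had both RELB-/- DMSO libraries below both wild-type DMSO libraries, against 35.8% of all genes. With zymosan 180 were still below and 135 were above, against 39.6% and 35.4% of all genes. The DMSO level is part of the difference that chose these genes, so the first count is a description with no test. The 12 largest positive differences at a mean log2 CPM of at least 4 in a RELB-/- or wild-type group were then taken. They were in 11 named genes and 1 predicted gene, while less abundant genes such as Ifi205 differed by more (5.22).

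Ccl7, a monocyte attractant, showed the largest difference among genes above that level. It had 0.379 and 0.447 CPM with DMSO and 43.1 and 42.9 with zymosan in RELB-/- and 1.80 and 2.00 CPM with DMSO and 11.2 and 9.98 with zymosan in wild-type cells, a difference in response of 4.23 ± 0.26 (adjusted p = 1.52e-23). It started lower and ended higher in RELB-/- cells, with no overlap at either treatment. Ccl2, its neighbour in function, behaved alike, at 3.74 and 4.12 CPM with DMSO and 182 and 182 with zymosan against 14.5 and 13.8 CPM with DMSO and 130.0 and 124 with zymosan (difference 2.37 ± 0.094). Cxcl10, an interferon-inducible chemokine, stayed lower in RELB-/- cells at both treatments, 3.25 and 3.44 CPM with DMSO and 100.2 and 103 with zymosan against 57.9 and 57.0 CPM with DMSO and 223 and 223 with zymosan (difference 2.97 ± 0.077). Cxcl2 ended lower too, at 14717 and 14594 against 20082 and 19868 CPM, although its response was larger by 2.46 ± 0.024, as wild-type cells held 546 and 532 CPM with DMSO.

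The 3 early growth response genes rose from a lower start. Egr1 had 9.79 and 9.90 CPM with DMSO and 217 and 214 with zymosan in RELB-/- and 83.9 and 79.5 CPM with DMSO and 171 and 168 with zymosan in wild-type cells (difference 3.40 ± 0.060, adjusted p = 1.51e-58). Egr3 gave 7.51 and 6.70 against 53.9 and 56.4 CPM with DMSO and 297 and 292 against 236 and 221 with zymosan (difference 3.32 ± 0.064). Egr2 had 7.13 and 6.38 CPM with DMSO and 103 and 108 with zymosan against 36.9 and 37.9 CPM with DMSO and 90.9 and 91.4 with zymosan (difference 2.68 ± 0.079). All 3 encode zinc finger factors induced through MAP kinases. Of the 25 immediate early genes, 22 had a positive and 1 a negative called difference, against 16.1% and 15.3% of all genes, with a median of 1.06. Every gene of this list rose in RELB-/- cells, and risen genes had positive differences more often. Of 4251 genes called risen in both lines, 1496 had a positive and 349 a negative difference. Nr4a2, another orphan nuclear receptor of that list, had 0.735 and 0.709 CPM with DMSO and 46.3 and 43.1 with zymosan against 3.19 and 2.96 CPM with DMSO and 23.3 and 22.8 with zymosan (difference 3.04 ± 0.21).

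Other large positive differences had the same shape. Ptgs2 ended slightly lower than in wild-type cells, 2739 and 2798 CPM against 2870.5 and 2852, but began at 16.2 and 16.02 against 137 and 134 (difference 3.02 ± 0.038). Dusp4 and Rasgef1b, an exchange factor for Rap proteins, differed by 2.63 ± 0.28 and 2.62 ± 0.082. Ereg and Areg differed by 2.92 and 2.69, values that rest on 1 and 2 counts with DMSO. At both treatments they were far lower in RELB-/- cells: with zymosan Areg had 12.7 and 12.9 CPM against 182 and 189, and Ereg 11.4 and 9.98 against 126 and 125. The Ereg difference lost its call with DESeq2 and without the first RELB-/- DMSO library (2.05 in that case).

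In the NF-kB family itself the responses were somewhat larger in RELB-/- than in wild-type cells, as they were in IRF5-/- cells. The subunits had a median response of 3.29 in RELB-/-, 3.55 in IRF5-/- and 2.46 in wild-type cells. For IkB genes the medians were 3.79, 4.06 and 2.08 in that order. All 5 subunits had a positive called difference, and counts in this family are to be read against the 16.1% of all genes with a positive and 15.3% with a negative difference. All 5 also rose, and of 4251 genes called risen in both lines 1496 had a positive and 349 a negative difference. The differences of the subunits ranged from 0.26 ± 0.031 in Nfkb1 to 1.03 ± 0.038 in Relb, and Nfkb2 differed by 0.99 ± 0.029. With zymosan each was nonetheless near or below the wild-type level, as in Nfkb2 with 1665 and 1650.5 against 1857 and 1834 CPM and Nfkb1 with 1126 and 1117 against 1421 and 1419. Rela was the exception and ended slightly higher, at 328 and 305 against 291 and 283. Among IkB genes 5 of 7 had a positive difference, led by Nfkbie (1.96 ± 0.040; 636 and 620.0 CPM with zymosan against 483 and 469), and Nfkbia differed by 1.07 ± 0.027. Among feedback inhibitors 18 of 24 were positive and 3 negative, with Tnfaip3 at 1.58 ± 0.029. Of 11 alternative pathway genes 6 were positive and none negative (edgeR), with a median of 0.30.

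Smaller rises and deeper falls in RELB-/- cells were ranked at a mean log2 CPM of at least 4 in a RELB-/- or wild-type group. Less abundant genes such as Mrpl44 (-2.76) had larger negative differences. Spsb1, an adaptor of a ubiquitin ligase, led the ranked genes. It had 18.1 and 20.0 CPM with DMSO and 0.583 and 0.334 with zymosan in RELB-/- and 3.19 and 3.01 CPM with DMSO and 0.390 and 0.454 with zymosan in wild-type cells, a difference of -2.46 ± 0.53 (adjusted p = 0.000103), and its RELB-/- DMSO libraries were the high ones. Tmem229b, a membrane protein gene, had 23.1 and 20.9 CPM with DMSO and 1.44 and 1.58 with zymosan against 19.5 and 18.1 CPM with DMSO and 6.93 and 6.08 with zymosan (difference -2.34 ± 0.20). Here the lines were close before zymosan and apart after it. Mlst8, a component of the mTOR complexes, and Slc7a5, an importer of large neutral amino acids, differed by -1.75 ± 0.17 and -1.58 ± 0.11. Slc7a5 fell in RELB-/- cells, from 35.8 and 35.7 to 20.2 and 21.8 CPM, and rose in wild-type cells, from 11.9 and 11.6 to 21.7 and 19.6. Nxpe3 rose in both lines but less in RELB-/- cells (difference -1.72 ± 0.15). Of the 499 genes that fell with a difference of at least 2-fold downward, 452 had both zymosan libraries below both wild-type libraries, against 39.6% of all genes. With DMSO 252 of them were above and 119 below, against 42.7% and 35.8% of all genes, and these levels are likewise part of the choice.

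Interferon-related genes were among the negative differences, but others had positive ones. Among interferon-inducible genes of the p200 family, Ifi211, Mndal, Ifi203, Ifi207 and Ifi204 differed by 2.32, 1.97, 1.57, 1.25 and 0.78. Ifi206 and Ifi209, at 0.017 and -0.17, were not called. Irgm2, an interferon-inducible GTPase, had 17.5 and 16.9 CPM with DMSO and 3.77 and 3.63 with zymosan in RELB-/- and 19.8 and 19.3 CPM with DMSO and 15.7 and 15.2 with zymosan in wild-type cells (difference -1.87 ± 0.14, adjusted p = 3.06e-19). Irgm1 had 9.86 and 11.1 CPM with DMSO and 3.46 and 3.97 with zymosan against 14.6 and 15.8 CPM with DMSO and 16.3 and 16.6 with zymosan (difference -1.62 ± 0.15). Both fell in RELB-/- cells, while the wild-type responses were -0.34 and 0.11. Cmpk2, a nucleotide kinase induced by interferon, differed by -1.88 ± 0.16 and Stat2, which transmits the type I interferon signal, by -0.82 ± 0.11. Of 28 interferon stimulated genes tested, 8 had a negative and 3 a positive called difference, against 15.3% and 16.1% of all genes, with a median of -0.26 beside -0.04 over all genes. Rsad2, which encodes the antiviral protein viperin, went the other way, by 1.19 ± 0.19. Its level was nevertheless 9.29 and 6.64 CPM with zymosan in RELB-/- cells against 48.8 and 48.8 in wild-type cells. Il15, a cytokine that sustains natural killer cells, rose in wild-type cells from 6.37 and 7.05 to 17.2 and 15.9 CPM and went from 11.8 and 10.9 to 10.6 and 8.65 in RELB-/- cells (difference -1.53 ± 0.14).

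Of 20 ribosome biogenesis genes, 9 had a negative and 3 a positive called difference, against 15.3% and 16.1% of all genes, with a median difference of -0.48. Wdr43 and Pes1, which act in the making of the small and the large subunit, differed by -1.30 ± 0.18 and -0.81 ± 0.13. Wdr43 went from 9.48 and 10.4 to 3.93 and 4.59 CPM in RELB-/- cells and from 9.04 and 7.40 to 8.54 and 8.71 in wild-type cells. Eef2k, which slows protein elongation, differed by -1.70 ± 0.15. The histone methyltransferase gene Setdb1, Prr12 and Zfp422 completed the 12 largest negative differences at a mean log2 CPM of at least 4. They differed by -1.49, -1.53 and -1.46. Cebpa fell by 1.13 in RELB-/- cells against a response of -0.083 in wild-type cells (difference -1.05 ± 0.070). Tnfsf14, which encodes the lymphotoxin receptor ligand LIGHT, had 137 and 130.0 CPM with zymosan from 159.6 and 163 in RELB-/- cells and rose from 38.7 and 40.9 to 81.4 and 84.9 in wild-type cells (difference -1.33 ± 0.053).

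**Figure D4:**
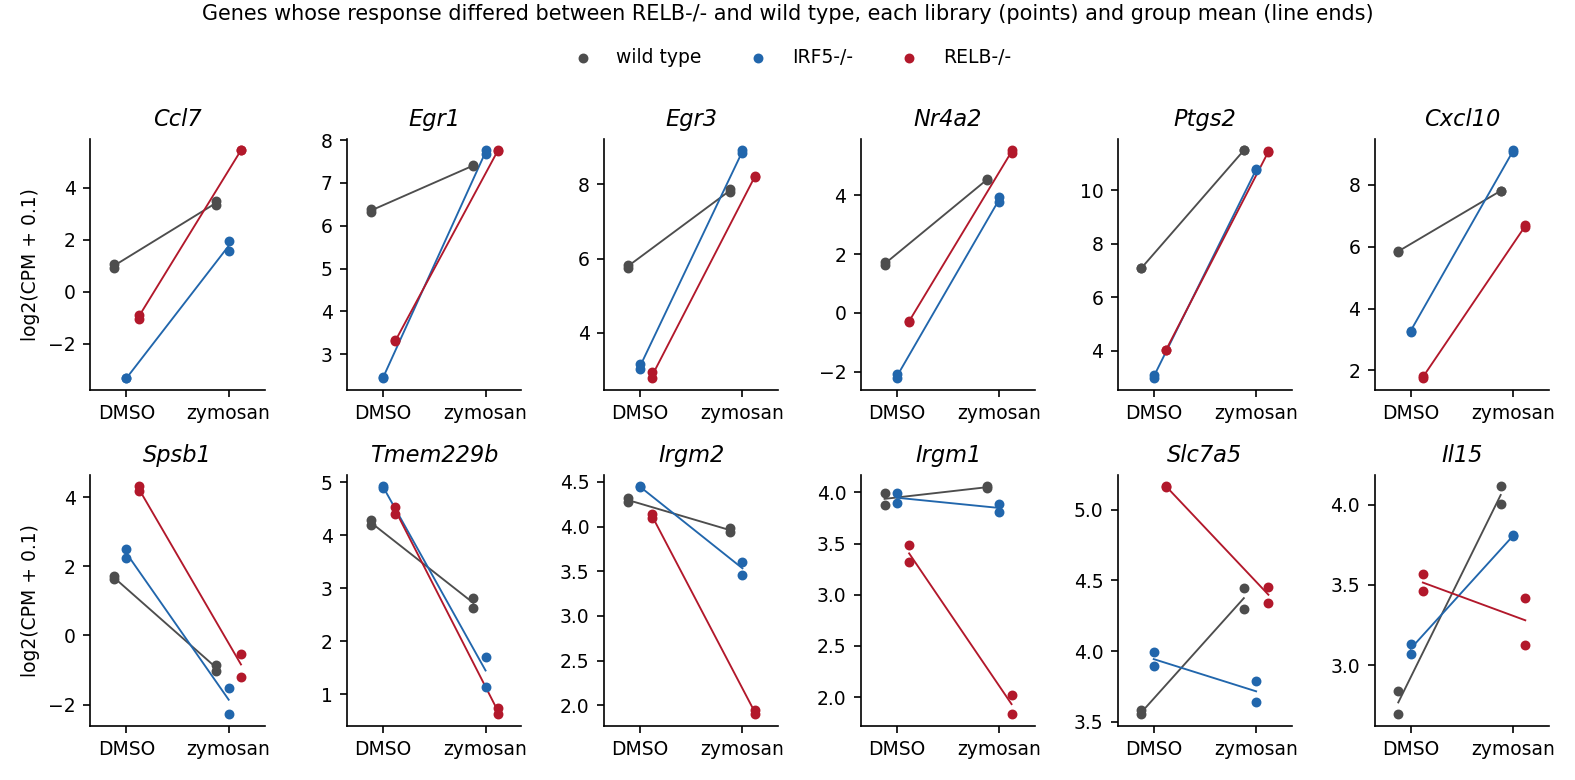
Level of 12 genes with DMSO and with zymosan (x axis) as log2(CPM + 0.1) (y axis, own range per panel) in wild-type (grey), IRF5-/- (blue) and RELB-/- cells (red), where each point is a library and lines join group means of 2. In Egr1 and Ptgs2 the red and blue lines start low and run close together, while in Irgm1 the red points fall to 3.46 and 3.97 CPM and the blue and grey points do not.

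The response of IRF5-/- cells in the same table was set beside that of RELB-/- cells, a comparison added after the values were seen. Because both differences from wild type use the same wild-type libraries, the responses are given side by side and their likeness is not measured. For the positive differences, Egr1 responded by 4.45 in RELB-/-, 5.29 in IRF5-/- and 1.05 in wild-type cells. Ptgs2 gave 7.42, 7.75 and 4.40, and Cxcl10 gave 4.92, 5.83 and 1.96. Each of the 3 thus had a larger response in both knockout lines than in wild-type cells. Over the 345 genes that rose at least 2-fold more in RELB-/- cells, median responses were 3.56, 3.70 and 1.96 in the same order of lines. Over the 499 that fell at least 2-fold further they were -2.12, -1.63 and -0.51. Both sets were chosen by their difference from wild type. For the negative differences, Tmem229b gave -3.87, -3.49 and -1.53, but Irgm1 gave -1.50, -0.10 and 0.11. Tested directly, the response of RELB-/- cells differed from that of IRF5-/- cells in 3429 genes (24.9%), 1724 higher (12.5%) and 1705 lower (12.4%), and by at least 2-fold in 133 (0.965%) and 272 (1.97%).

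In that direct test Irgm1, Irgm2 and Nxpe3 responded less or fell further in RELB-/- cells, with differences of -1.40 (adjusted p = 1.31e-11), -1.30 (adjusted p = 3.2e-11) and -1.60 (adjusted p = 6.76e-15). Cmpk2 did so too, with a difference of -1.19 ± 0.17. Spsb1 and Setdb1, in contrast, had differences from IRF5-/- of -0.44 ± 0.76 and 0.078 ± 0.24, which did not pass (adjusted p = 0.757 and 0.88). Bcl3 separated the knockout lines: it went from 105 and 101 to 417 and 405 CPM in IRF5-/- cells but from 195 and 195 to 238 and 224 in RELB-/- cells (difference -1.74 ± 0.039), and wild-type cells had 193 and 194 CPM with DMSO and 245 and 237 with zymosan. Egr2 was higher in response than in IRF5-/- cells by 0.75 ± 0.099. Ccl7 had 0 counts in both IRF5-/- DMSO libraries and 115 in those with zymosan, at least 79.0-fold higher, so no fitted difference is given for it.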

How the data were processed

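Poly(A) RNA was sequenced as paired 150-base reads. Per the file headers, featureCounts 1.6.3 counted read pairs per gene as reverse stranded (setting 2) with a mapping quality minimum of 255, so the deposited values are raw counts, and pairs that map to several places are left out. STAR, DESeq2 and the builds mm10 and GRCm38 are named in the submitters' processing notes. The deposited table also gives gene length (unit: other, bp), used for RPKM. Of 50600 gene IDs 50376 (99.6%) were matched to symbols.

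Groups came from the labels. All 12 libraries were fitted together by group in R 4.3.3, using the quasi-likelihood method of edgeR 4.0.16 after TMM scaling, with genes kept by filterByExpr (count minimum 10, total minimum 15, share 0.7), leaving 13779 genes and 6 residual degrees of freedom. Contrasts were zymosan minus DMSO in RELB-/- cells and that response minus the wild-type response, with a threshold of 0.05 on p-values adjusted after Benjamini and Hochberg. Standard errors are the absolute log2 change over the root of F. The fit was tested on simulated data in which only a small part of the genes changed, equally often up and down. That test does not cover the choice of scaling. Replicates differed by more than sampling noise (chi-square per gene 1.65 to 2.95).

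The comparison, its members, the 42 gene lists (627 genes) and the rule for named genes were chosen with earlier results of these data known. The rule took, at a mean log2 CPM of at least 4, the 15 largest rises and 12 largest falls without overlap, the 12 largest differences each way, up to 4 called members per list by response and by difference, all NF-kB and IkB genes, and the 10 highest genes per length. Of the list members, 51 entries had too few counts to test. Promoter windows and miRNA are from RefSeq tables. Alternatives were RLE and total-count scaling, DESeq2 1.42.0, no filter, fewer libraries, a replicate block, each library left out and a 2-fold threshold. Plots used matplotlib 3.10.9.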

Additional observations from a re-analysis of the deposited data

Results flagged for a closer look

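The zymosan response of RELB-/- cells differed from that of wild-type cells in 4330 genes by an interaction test (edgeR, adjusted p under 0.05). Listed here are the named genes with the largest differences at a mean log2 CPM of at least 4 in a RELB-/- or wild-type group. A larger response, on the log2 scale, was measured for Ccl7 (4.23), Egr1 (3.40), Egr3 (3.32), Nr4a2 (3.04), Ptgs2 (3.02), Cxcl10 (2.97), Ereg (2.92), Areg (2.69), Egr2 (2.68), Dusp4 (2.63) and Rasgef1b (2.62). A smaller rise or a deeper fall was measured for Spsb1 (-2.46), Tmem229b (-2.34), Irgm2 (-1.87), Mlst8 (-1.75), Nxpe3 (-1.72), Eef2k (-1.70), Irgm1 (-1.62), Slc7a5 (-1.58), Prr12 (-1.53), Il15 (-1.53), Setdb1 (-1.49) and Zfp422 (-1.46). Groups of 2 libraries are too small for a check of single outlying samples.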

How the results depend on the processing

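The RELB-/- response was called in 9968 genes with RLE scaling, 9251 with DESeq2, 10046 without the filter on low counts, 9812 in a fit of its 4 libraries alone and 5165 with a 2-fold threshold. Total-count scaling called 2071 genes higher and 9382 lower, and at least 2-fold 1168 higher and 6329 lower. Leaving out 1 library in turn gave 9217 to 9550 genes.

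Differences from wild type passed in 908 genes with a 2-fold threshold. Positive against negative differences numbered 2902 and 1538 with RLE scaling, 2459 and 1062 with DESeq2, 2798 and 1327 without the filter, and 3340 and 1330 when only the 8 libraries compared were fitted. With total-count scaling they numbered 2109 and 2245. DESeq2 called 343 genes at least 2-fold lower. Leaving out 1 library gave 3799 to 4259 called differences, 2034 to 3131 positive and 1091 to 1867 negative, and at least 2-fold 332 to 466 positive and 362 to 531 negative. Without the first or second zymosan library of RELB-/- cells 1091 and 1128 were negative, and without those of wild type 1174 and 1121. With IRF5-/- cells as the reference, an alternative added after the data were seen, 133 genes were at least 2-fold higher and 272 lower.

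Same-numbered libraries did not deviate together (correlations of -0.0057, 0.0012 and -0.023 in RELB-/-, wild-type and IRF5-/- cells). Pairs that share little deviation would give such values too, so whether the numbers pair the samples stays unknown. The replicate block gave 9974 genes for the response and 4290 for the difference.

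Among single genes, total-count scaling reversed the response of Irf5 (-0.07), Bcl3 (-0.64), Hk2 (-0.15), S100a8 (-0.20), S100a9 (-0.32) and Cybb (-0.23). The calls of some small or low-count values were lost: Il15 in its response (-0.23; -0.11 without the second RELB-/- zymosan library), Ereg in its difference (3.41 with DESeq2) and Il6 in its difference under DESeq2 (4.01). Depth limits the genes with few DMSO counts, whose folds are bounds or wide intervals.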
